A study of Mus musculus with 44 samples.

Results

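The regions described here are the widest RING1B sites of cultured mouse haematopoietic progenitors: every RING1B peak whose end minus start was above 10000 bp. The members were chosen by this measured width alone. There were 464 such domains among 24987 RING1B peaks. RING1B is the ubiquitin ligase subunit of Polycomb repressive complex 1, which places ubiquitin on histone H2A. PCGF1 is the subunit that defines one variant form of this complex, a form known in mouse embryonic stem cells to be brought to CpG islands by KDM2B. H3K27me3 is deposited by the partner complex PRC2, and wide stretches that carry RING1B together with this mark are a known feature of silenced developmental genes.

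The 3 peak lists each stand for 2 libraries of IdHP cells, bone marrow progenitors of strain B6CBAF1/J held on TSt4 stroma with IL7, SCF and a further factor that the labels write as Fl3L, at passage 15 to 18. PCGF1 was mapped with an anti-FLAG antibody in Pcgf1 -/- cells that carried FLAG-PCGF1, and the level of the tagged protein relative to the native one is not given in the labels. RING1B, with an in-house antibody, and H3K27me3 were mapped in Pcgf1 fl/fl cells, so an overlap with PCGF1 sets 2 cell populations side by side. Each list gives 1 value per peak for both of its libraries; there is no replicate error, no read depth and no value per sample. No statistical test was therefore made. Intervals are exact 95% binomial intervals for shares, exact 95% Poisson intervals for densities and 95% order-statistic intervals for medians; they cover counting error only, and neighbouring peaks are not independent. The remaining 38 libraries were not analysed here.

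The domains were few but held much of the RING1B sequence. They made up 1.86% of the RING1B peaks and, with 7.84 Mb of 39.7 Mb, 19.7% of the bases in the list. Their widths had a median of 13728 bp (interquartile range 11485 to 18015), and 186 domains were wider than 15000 bp, 40 wider than 30000 bp and 6 wider than 50000 bp. The width was the rule itself, and the other values of the RING1B list belong to the same measurement, so they describe the domains and test nothing. The authors' fold enrichment of a peak over background had a median of 4.36 in the domains (3.86 to 5.57), against 3.82 in RING1B peaks of 5 to 10 kb and 3.22 over the list. The lowest domain fold was 3.10 and the highest 19.4.

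The threshold cut a continuous range of widths. The narrowest members were 10012 bp (chromosome 9, 62980694 to 62990705, RING1B fold 4.40), 10015 bp (chromosome 16, 81175396 to 81185410, fold 4.87) and 10025 bp (chromosome 16, 31654440 to 31664464, fold 3.90). The peaks just outside were 9990 bp (chromosome 7, 149092882 to 149102871, fold 4.14), 9976 bp (chromosome 11, 54234005 to 54243980, fold 3.66) and 9973 bp (chromosome 5, 108794823 to 108804795, fold 3.52). All 6 lay on H3K27me3, and only the last held a PCGF1 peak. Positions of RING1B peaks are 1-based and are read as build mm9; genes were not assigned, because the gene table at hand belongs to GRCm38.p6.

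The 10 widest domains and the 10 of highest RING1B fold were different domains. The widest ran over 65223 bp (chromosome 2, 34079795 to 34145017) with a RING1B fold of 6.26, no PCGF1 peak and 8 separate H3K27me3 regions that covered 74.4% of it. The next were 60572 bp on chromosome 6 (119746361 to 119806932, fold 5.09, 1 PCGF1 peak), 55035 bp on chromosome 19 (4651295 to 4706329, fold 4.62) and 54413 bp on chromosome 17 (24927078 to 24981490, fold 6.34). These 3 had 96.9%, 100% and 96.4% of their bases under H3K27me3. Of the 10 widest domains, from 47159 bp upward, 3 held PCGF1 and all lay on H3K27me3, with a median fold of 5.33 and none above 6.96. One of them was poor in the mark: the domain of 47496 bp on chromosome 13 (113391079 to 113438574, fold 4.85) was covered over 16.7% of its bases.

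None of the 10 widest was among the 10 domains with the highest RING1B fold. Sets of 10 among 464 domains would rarely share a member even if width and fold were unrelated, so this says little about how they go together. The highest fold, 19.4, was in a domain of 12965 bp on chromosome 10 (21867797 to 21880761) with 3 PCGF1 peaks. After it came a domain of fold 18.9 with 5 PCGF1 peaks (chromosome 2, 73103417 to 73120114) and one of fold 15.6 with 6 (chromosome 15, 35219003 to 35237147). Of the 10 highest, 8 held PCGF1 and all lay on H3K27me3, which covered from 70.7% to 100% of each. The exceptions without PCGF1 had folds of 13.4 (chromosome 2, 18578568 to 18595145) and 11.7 (chromosome 6, 51120549 to 51137170), with 79.5% and 100% of their bases under H3K27me3. Across the 464 domains the rank correlation of width with fold was 0.33, given as a description since both values come from one list. The median fold was 5.17 in the 116 widest domains and 4.15 in the 116 narrowest.

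**Figure D1:**
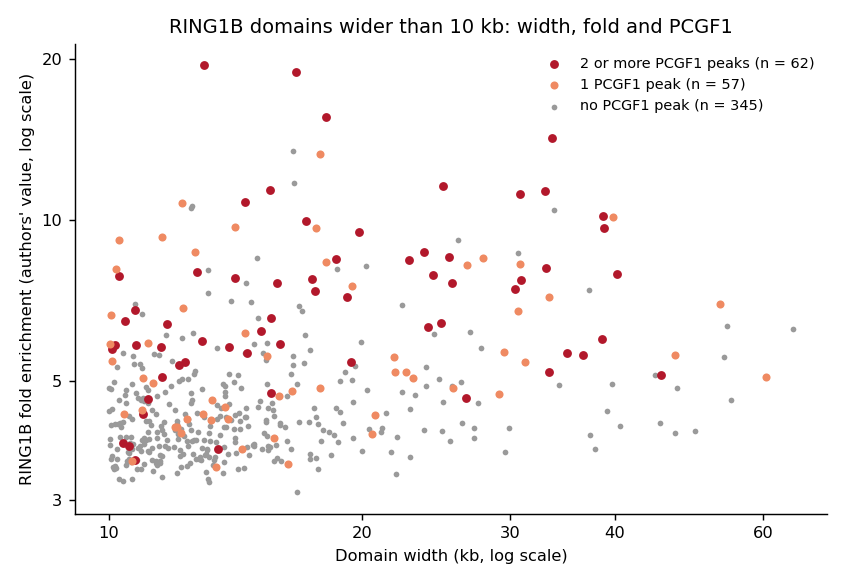
Each point is a RING1B domain, by its width in kb and the authors' RING1B fold, both on log scales, coloured by the number of PCGF1 peaks it held. The 62 domains with 2 or more PCGF1 peaks and the 57 with 1 lie mostly in the upper part of the fold range at all widths, while the 345 without PCGF1 crowd near the lowest folds.

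PCGF1 was found in more of the domains than of any narrower class. PCGF1 peaks lay on 119 of the 464 domains (25.6%, interval 21.7 to 29.9), on 17.4% of RING1B peaks of 5 to 10 kb (15.2 to 19.7) and on 13.5% of those of 2 to 5 kb (12.3 to 14.7). Over the whole RING1B list the share was 5.85%. At least 2 PCGF1 peaks lay on 62 domains (13.4%, 10.4 to 16.8), on 6.86% of RING1B peaks of 5 to 10 kb and on 1.35% of the list. A longer peak has more bases on which another peak can fall, so the count was also taken per Mb and per window of 1 fixed length.

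Measured per base, PCGF1 was sparser in the domains than in RING1B peaks of 1 to 5 kb. With each PCGF1 peak placed by its midpoint, the domains held 246 peaks, or 31.4 per Mb (27.6 to 35.5). RING1B peaks of 5 to 10 kb held 39.8 per Mb (35.4 to 44.5), those of 2 to 5 kb 59.4 (54.7 to 64.3) and those of 1 to 2 kb 58.2 (52.5 to 64.2). The interval of the domains did not overlap those of the 2 to 5 kb and 1 to 2 kb classes and only just touched that of the 5 to 10 kb class. It overlapped those of RING1B peaks of 0.5 to 1 kb, at 38.9 per Mb (33.7 to 44.7), and of up to 0.5 kb, at 40.4 (33.0 to 48.9). The density in domains minus that at 5 to 10 kb was -8.40 per Mb, with an approximate 95% interval, built from the widths of both intervals, of -14.5 to -2.33; for domains above 15000 bp it was -5.48 (-12.7 to 1.70). The domains thus held 9.58% of the PCGF1 list (8.46 to 10.8) and 13.4% of the 1830 PCGF1 midpoints on RING1B, beside 19.7% of the RING1B bases.

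A window of 1000 bp at the centre of each peak also gave no higher value for the domains than for narrower RING1B peaks. PCGF1 overlapped the central window in 26 of 464 domains (5.60%, 3.69 to 8.10), in 7.59% of RING1B peaks of 5 to 10 kb (6.09 to 9.32), in 9.64% of those of 2 to 5 kb (8.64 to 10.7) and in 6.82% of those of 1 to 2 kb (6.13 to 7.57). The order was not that of the densities, since the 1 to 2 kb class was below the 5 to 10 kb class here and above it per Mb. Over all RING1B peaks wider than 1 kb it was 7.80%, inside the interval of the domains. The difference from the 5 to 10 kb class was -1.98 percentage points, with an approximate 95% interval of -4.72 to 0.75 that holds 0. The window compares centres only and misses PCGF1 peaks that lie to one side.

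**Figure D2:**
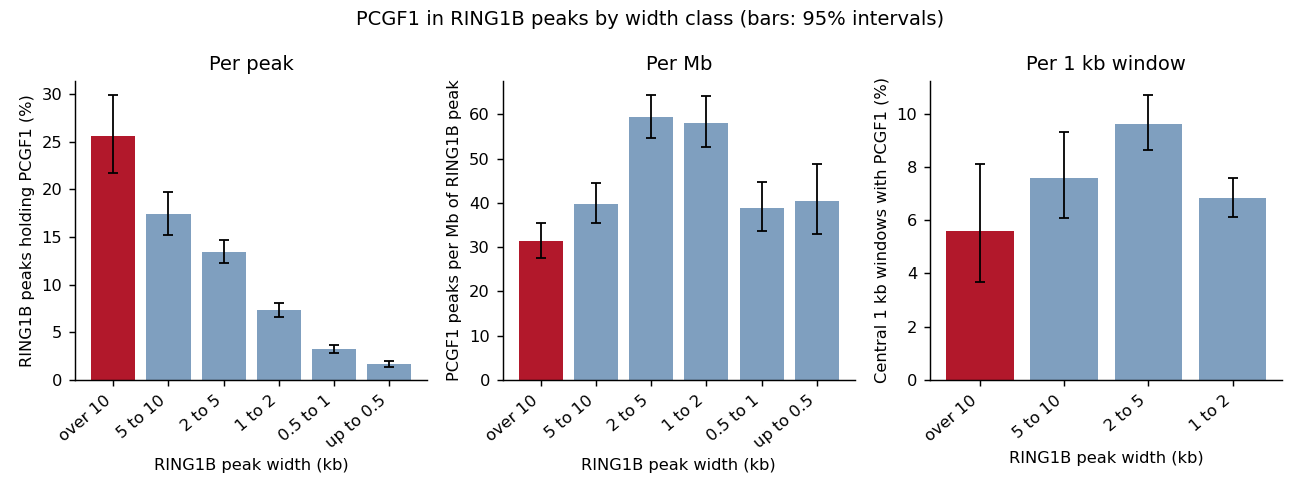
PCGF1 by RING1B width class in kb, with the domains in red at the left of each panel: the share of RING1B peaks holding PCGF1, the PCGF1 peaks per Mb of RING1B sequence, and the share of central 1 kb windows with PCGF1 (peaks wider than 1 kb). Bars with 95% intervals; the domains are highest per peak at 25.6%, and lowest per Mb at 31.4.

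Where the domains held PCGF1, it sat in a small part of them. The 62 domains with at least 2 PCGF1 peaks gave 127 distances between neighbouring midpoints, with a median of 875 bp (interquartile range 637 to 1176), and 108 of these were under 2 kb. From the first to the last PCGF1 midpoint the median span was 1458 bp, in domains with a median width of 16923 bp. Joining PCGF1 peaks less than 2 kb apart left 132 sites in the 119 domains, so that 107 domains had 1 site, 11 had 2 and 1 had more. Whether calls so close are separate sites or parts of one cannot be told apart in a peak list, and the number of peaks in a domain is not a number of independent sites.

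Of the 246 PCGF1 midpoints in domains, 153 (62.2%, 55.8 to 68.3) fell in the central 50% of the domain's length. Many of them belong to one cluster, since the 246 peaks join to 132 sites, so this interval is too narrow. The share was 56.9% (51.0 to 62.5) in RING1B peaks of 5 to 10 kb and 63.1% (59.1 to 67.0) in those of 2 to 5 kb, so the central position was not particular to the domains. The median distance of a PCGF1 midpoint from the nearer domain border was 4832 bp, and 25 of 246 (10.2%) lay within 1 kb of it. The PCGF1 peaks in domains were close in fold and width to those in RING1B peaks of 5 to 10 kb and wider than those in the narrower classes. Their median fold was 4.85 in domains (interquartile range 4.62 to 5.12), 4.88 in RING1B peaks of 5 to 10 kb and 4.73 off RING1B, with median widths of 320, 322 and 178 bp. In RING1B peaks of 2 to 5 kb and of 1 to 2 kb the median PCGF1 widths were 283 and 222 bp.

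At least 4 PCGF1 peaks lay on 17 domains, which were covered by H3K27me3 over 62.9% to 100% of their bases. Their median cover was 88.0%, close to the 87.4% over all domains with PCGF1. The most, 9, lay in a domain of 24819 bp on chromosome 19 (45295215 to 45320033, RING1B fold 6.43), wholly under a single H3K27me3 region of height 326. A domain of 30854 bp on chromosome 14 (122862279 to 122893132, fold 11.2) and one of 18609 bp on chromosome 7 (138685463 to 138704071, fold 8.45) held 8 each. Exactly 4 peaks lay on 12 domains, and the tie for the 10 with the most was broken by the highest PCGF1 fold; of the 10 so chosen, 5 were also among the 10 with the highest RING1B fold. The narrowest of these 10 were on chromosome 4 (48052335 to 48062509, 10175 bp, fold 5.85) and chromosome 13 (40817551 to 40828280, 10730 bp, fold 6.79), with 4 PCGF1 peaks each.

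The distance from domains without PCGF1 to the nearest PCGF1 peak was close to that from other RING1B peaks without PCGF1. The nearest PCGF1 peak lay at a median distance of 253828 bp from the border of these 345 domains, against 284136 bp for RING1B peaks of 5 to 10 kb and 265698 bp over the list, counted on chromosomes with a PCGF1 peak. It was within 10 kb for 18 of the domains (5.22%, 3.12 to 8.12), against 5.43% (4.04 to 7.11) and 4.91%, and within 50 kb for 67 (19.4%), against 17.1% and 16.9%. It was beyond 1 Mb for 78 (22.6%, 18.3 to 27.4), against 20.6% (18.0 to 23.4) and 20.3%. PCGF1 signal under the authors' cutoff cannot be seen in the list.

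PCGF1 was more frequent in domains of higher RING1B fold. Among the 116 domains with the highest RING1B fold, from 5.58 upward, 73 held PCGF1 (62.9%, 53.5 to 71.7). In the next 116 the share was 22.4% (15.2 to 31.1) and in the next 10.3% (5.46 to 17.4). In the 116 with the lowest fold, up to 3.85, it was 6.90% (3.02 to 13.1). The whole list had 5.85%, but its peaks had a median width of 744 bp, against 12398 bp in these 116 domains. These shares are therefore not matched in width. Per Mb, the 116 domains of highest fold held 76.4 PCGF1 peaks (65.7 to 88.3) and the 116 of lowest fold 9.09 (4.97 to 15.2). RING1B peaks of 5 to 10 kb held 39.8 per Mb. Ordered by width, whose range the rule cuts at its low end, 42.2% (33.1 to 51.8) of the 116 widest domains held PCGF1 and 19.0% (12.3 to 27.3) of the 116 narrowest, at 35.2 and 33.9 PCGF1 peaks per Mb.

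**Figure D3:**
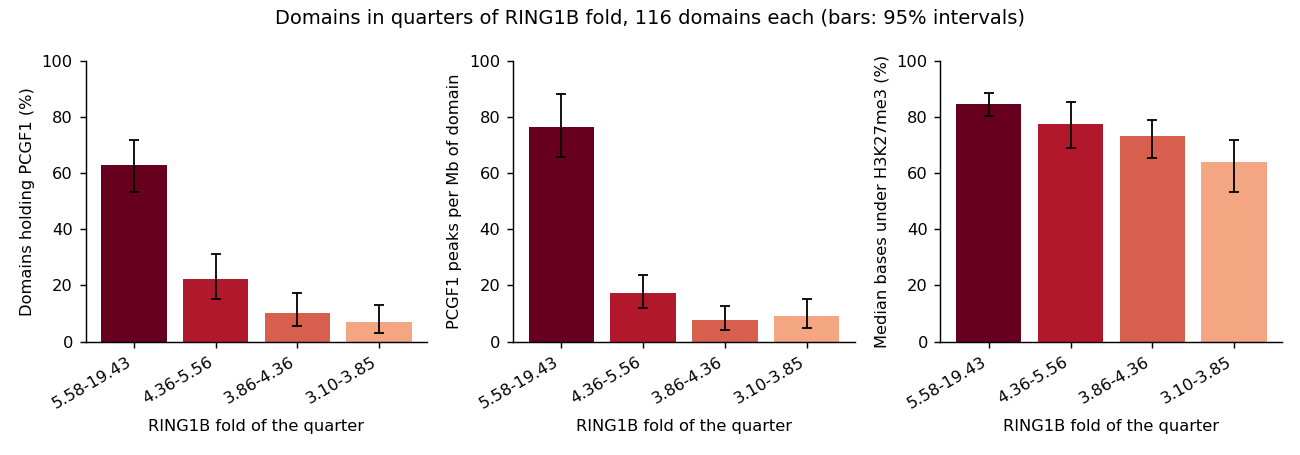
The 464 domains in 4 sets of 116 ordered by RING1B fold, highest at the left: the share holding PCGF1, the PCGF1 peaks per Mb and the median share of bases under H3K27me3, with 95% intervals. PCGF1 was present in 62.9% of the set of highest fold and 6.90% of the set of lowest fold, while the median H3K27me3 share was 84.8% and 64.2%.

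Below a fold of 7 the domains held less PCGF1 per base than narrower RING1B peaks. Between folds of 4 and 5, PCGF1 density was 10.4 peaks per Mb in 159 domains (6.88 to 15.2), 46.4 in 260 RING1B peaks of 5 to 10 kb (37.0 to 57.3) and 109 in 410 peaks of 2 to 5 kb (91.7 to 128). Under a fold of 4 the densities were 7.61 in 151 domains (4.35 to 12.4), 21.3 in 662 peaks of 5 to 10 kb (17.2 to 26.1) and 49.3 in those of 2 to 5 kb (44.6 to 54.4). From a fold of 7 upward the intervals overlapped: 90.1 (74.6 to 108) in 61 domains and 121 (84.9 to 166) in 42 peaks of 5 to 10 kb. Of the 61 domains of that fold, 45 held PCGF1. How the fold was summarised over a peak is not stated, so equal folds in peaks of different width need not mean equal heights.

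Nearly all domains touched H3K27me3, but only some were covered from end to end. Of the 464 domains, 449 lay on at least 1 H3K27me3 region (96.8%, 94.7 to 98.2), against 91.0% of RING1B peaks of 5 to 10 kb and 44.3% of the RING1B list. At least 50% of the bases lay under H3K27me3 in 353 domains (76.1%, 71.9 to 79.9), against 67.8% (65.0 to 70.6) of RING1B peaks of 5 to 10 kb and 36.9% of the list. Whole cover was less frequent in the domains: 98 (21.1%, 17.5 to 25.1), against 30.8% (28.1 to 33.6) of RING1B peaks of 5 to 10 kb and 29.3% of the list. A longer peak has more bases to be left bare, as it has more to be touched.

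The share of bases and the central window, which do not grow with width by construction, were also higher in the domains. Of their bases, 71.0% lay under H3K27me3, against 64.9% in RING1B peaks of 5 to 10 kb and 55.7% in those of 2 to 5 kb; per domain the median was 76.3% (72.5 to 79.3). The central 1 kb window met H3K27me3 in 362 domains (78.0%, 74.0 to 81.7), in 71.9% (69.2 to 74.6) of RING1B peaks of 5 to 10 kb and in 54.0% of all RING1B peaks wider than 1 kb. The tallest H3K27me3 region on a domain had a median height of 136 (interquartile range 108 to 182), against 122 (95.6 to 154) for RING1B peaks of 5 to 10 kb. This last measure can grow with width, since the domains met a mean of 1.84 regions against 1.14 and the tallest was taken. Height is the highest signal of a region on a scale the authors do not state.

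**Figure D4:**
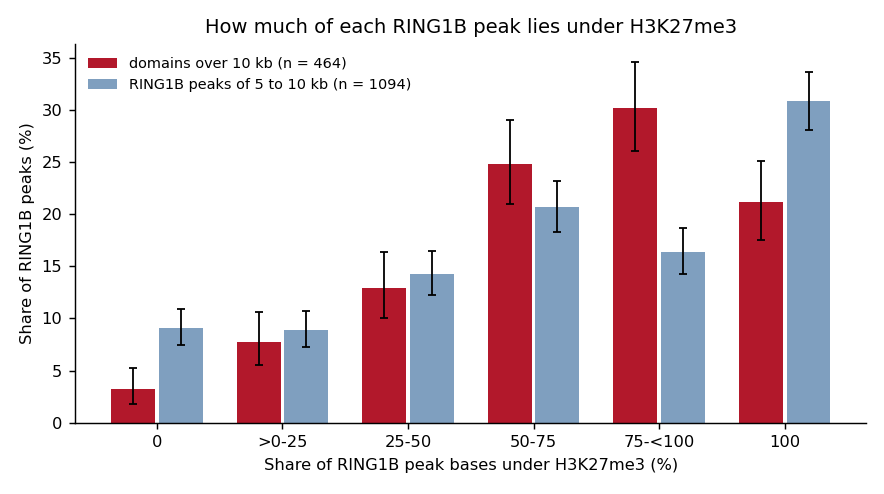
Share of RING1B peaks, in percent with 95% intervals, by how much of the peak lay under H3K27me3, for the 464 domains (red, left of each pair) and the 1094 RING1B peaks of 5 to 10 kb (blue). Domains were most often covered in part: 30.2% had from 75% to under 100% of their bases marked and 3.23% had none, against 16.4% and 9.05% of the narrower peaks.

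The mark under a domain was usually made of few regions. There was 1 H3K27me3 region on 188 domains, 2 on 163 and 3 on 71, and the most was 8. Together the domains touched 813 H3K27me3 regions, 0.600% of that list, with a median width of 6120 bp and a median height of 111, against 1840 bp and 68.5 over the list. A wide region is more easily touched than a short one, so the greater width can follow from the choice of these regions. The shared sequence, 5.57 Mb, was 1.15% of all bases under H3K27me3. The RING1B domains were thus a small part of the marked genome.

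RING1B borders were not H3K27me3 borders in most cases. At 481 of the 928 domain borders (51.8%, 48.6 to 55.1) H3K27me3 was present both 1 kb inside and 1 kb outside, and at 227 (24.5%) on neither side. The mark was inside only at 126 borders (13.6%, 11.4 to 16.0) and outside only at 94 (10.1%, 8.26 to 12.3). RING1B peaks of 5 to 10 kb gave similar shares, with the mark on both sides at 48.7% of borders and inside only at 15.0%. Away from the domains the mark thinned slowly, from 65.0% of borders at the border itself to 51.9% at 10 kb outside and 46.6% at 20 kb outside. The outside was not free of RING1B: a RING1B peak lay at 27.8% of these positions at 1 kb, 32.8% at 10 kb and 26.9% at 20 kb. Outside RING1B peaks of 5 to 10 kb these shares were 24.4%, 20.4% and 17.4%.

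Domains with PCGF1 carried more H3K27me3 than domains without it. All 119 domains with PCGF1 lay on the mark, against 330 of the 345 without. The median share of bases covered was 87.4% (83.8 to 91.8) with PCGF1 and 69.6% (65.2 to 74.0) without, and the median of the tallest height was 184 (173 to 194) and 125 (119 to 129). Domains with PCGF1 were also wider, with medians of 15934 and 13180 bp, and had a higher RING1B fold, with medians of 5.89 and 4.14.

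The difference in H3K27me3 cover was present on both sides of the median RING1B fold. Above it, the median covered share was 87.5% (83.6 to 92.5) in 99 domains with PCGF1 and 74.2% (66.5 to 80.2) in 133 without. Below it, the values were 86.4% (75.4 to 100) in 20 domains with PCGF1 and 67.6% (60.6 to 72.4) in 212 without. In both the intervals did not overlap, although within each of them the domains with PCGF1 had the higher median fold. Across the 464 domains the rank correlation of the covered share was 0.30 with the number of PCGF1 peaks and 0.22 with the RING1B fold, values that share the same domains and are given as a description.

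Within the domains PCGF1 sat on marked sequence about as often as the sequence was marked. Of the 246 PCGF1 midpoints in domains, 212 lay under H3K27me3 (86.2%, 81.2 to 90.2), where 84.7% of the bases of the PCGF1-holding domains were covered. The share was 67.6% (61.9 to 72.8) for PCGF1 in RING1B peaks of 5 to 10 kb, 50.9% (46.8 to 55.0) in those of 2 to 5 kb and 48.9% (46.9 to 50.8) over the PCGF1 list. The covered share of PCGF1-holding peaks was 76.4% at 5 to 10 kb and 56.4% at 2 to 5 kb. At the borders of PCGF1-holding domains H3K27me3 was present in 74.4% of cases, against 84.9% at 2.5 kb inside and 58.0% at 10 kb outside.

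**Figure D5:**
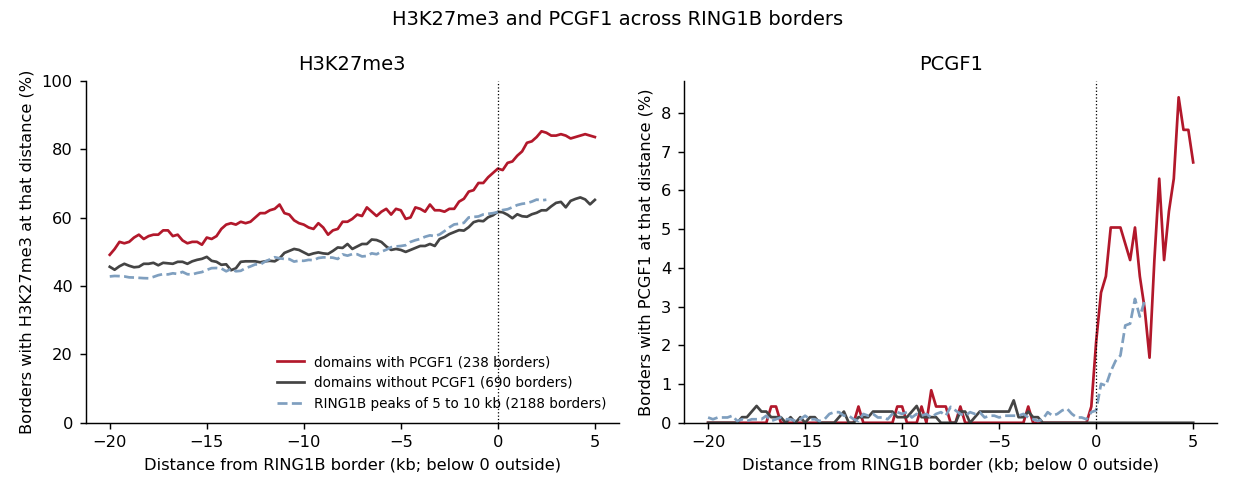
Percent of RING1B borders with H3K27me3 (left) or PCGF1 (right) at each distance in kb, from 20 kb outside to 5 kb inside (2.5 kb for peaks of 5 to 10 kb), for domains with PCGF1, domains without and RING1B peaks of 5 to 10 kb. H3K27me3 runs across the border in each group. Among the groups it is highest inside domains with PCGF1, where it was 84.9% at 2.5 kb from the border. Inside domains without PCGF1 the right panel is 0 by definition.

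The 15 domains off H3K27me3 held no PCGF1 peak, and 15 is a small number. The share holding PCGF1 was 25.6% over all domains and 5.85% over the RING1B list. By fold it was 6.62% of domains under 4, 13.8% from 4 to 5, 45.2% from 5 to 7 and 73.8% from 7 upward. The widths of the 15 domains ran from 10124 to 21136 bp, and their RING1B folds from 3.29 to 7.02 with a median of 3.99. The highest folds were 7.02 over 14750 bp (chromosome 17, 50416288 to 50431037) and 6.68 over 10961 bp (chromosome 2, 52279532 to 52290492). Folds of 4.75, 4.71 and 4.12 followed in domains on chromosome 13 (23712287 to 23724813), chromosome 6 (129343156 to 129353612) and chromosome 14 (76803296 to 76815269). The widest was on chromosome 4, 59109253 to 59130388 (21136 bp, fold 4.09). The remaining 9 had folds from 3.29 to 4.03. H3K27me3 signal under the authors' cutoff cannot be seen in the list.

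Some domains were close neighbours. Of 443 distances between consecutive domains of a chromosome, 67 were under 10 kb and 25 under 2 kb, while the median was 1.03 Mb. The same distances were not computed for narrower RING1B peaks, so this closeness cannot be called particular to the domains. Joined at under 10 kb, 122 domains formed 55 runs, 10 of them with 3 or more domains. The 67 gaps inside the runs had a median length of 3685 bp, and H3K27me3 covered 67.5% of their bases, close to the 71.0% inside the domains. These gaps were not free of RING1B, since narrower RING1B peaks covered 28.3% of their bases. Domains in runs held PCGF1 less often than single ones, 15.6% (9.64 to 23.2) of 122 against 29.2% (24.5 to 34.4) of 342; their median folds were 4.21 and 4.46.

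The longest runs had 4 domains. One spanned 113574 bp on chromosome 9 (63259574 to 63373147), with RING1B folds from 3.51 to 4.40 and no PCGF1 peak. The other spanned 89160 bp on chromosome 15 (102774213 to 102863372), with folds from 3.42 to 4.93 and no PCGF1 peak, and all 4 domains were wholly under H3K27me3. A run of 3 on chromosome 17 (36279121 to 36372143) was also wholly marked and held 1 PCGF1 peak in each domain, and a pair on chromosome 6 (52166800 to 52231135) held 5 PCGF1 peaks under full cover. These runs were picked after their values were seen.

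The domains were unevenly spread over the chromosomes. Chromosome 2 had the most, 59 (2.48% of its RING1B peaks), followed by chromosome 13 with 49 (3.53%, 2.62 to 4.64), against 1.86% over the list. The fewest among placed chromosomes were on chromosome 8, with 4 of 855 RING1B peaks (0.468%, 0.128 to 1.19), and chromosome 18, with 5 (0.792%). Of the 49 domains on chromosome 13, 7 held PCGF1, and their median H3K27me3 cover was 62.9%; on chromosome 2 these values were 17 of 59 and 81.1%. The copy number of these cultured cells was not analysed here.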

How the data were processed

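Peak lists were analysed for chromatin immunoprecipitation of RING1B and H3K27me3 in Pcgf1 fl/fl and of FLAG in Pcgf1 -/- plus FLAG-PCGF1 IdHP cells, 2 libraries each, as a deposited text assigns them. The submitters' processing notes name Bowtie2, Picard and SAMtools 1.6.0, and builds mm9 and dm3, of which mm9 is the mouse one. The caller, cutoff, control and any pooling behind the lists were not given in the sources used here. The deposited broadPeak lists hold a score, a fold enrichment ratio and -log10 q per peak. Regions of H3K27me3 have, per the file headers, a signal height, an above-cutoff width (deposited without a unit, not used) and a p-value for the height, read as -log10 and not used.

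Lists were compared in Python 3.11.15 (numpy 2.4.6, pandas 2.3.3, scipy 1.17.1) by overlap of at least 1 bp; PCGF1 peaks were counted by midpoint for densities. The overlap code was tested on simulated data. Named domains were taken from the 10 widest, the 10 of highest fold, the 10 with the most PCGF1 peaks (ties by PCGF1 fold), those off H3K27me3 and 3 on each side of the width threshold; runs and chromosomes were added after seeing the data. The members and lists were chosen with earlier results of these data known. Genes and sequences were not used, since the reference tables belong to GRCm38.p6.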

Additional observations from a re-analysis of the deposited data

How the results depend on the processing

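Of 69 recomputed values for 13 results, 52 moved by less than the counting interval of the value reported (for the number of domains, by less than 1.5 times) and 17 moved by more. A change of sign was possible only for the differences between groups, and none of these changed sign. The differences in PCGF1 density, central window share and H3K27me3 cover were added after seeing the data and moved in no setting. PCGF1 density in domains minus RING1B peaks of 5 to 10 kb stayed between -10.2 and -5.15 per Mb. The value of -10.2 was above 8000 bp, where the narrower class ends at 8 kb. The value of -5.15 was for the stronger 50% of PCGF1 peaks, where both densities were lower, at 17.7 and 22.9 per Mb. The number of domains, 464 in the main setting, was 714 above 8000 bp and 186 above 15000 bp. With RING1B peaks within 1 kb merged it was 644, inside the limit of 1.5 times. Above 15000 bp, PCGF1 was held by 36.0% of domains, 98.4% lay on H3K27me3 and the median tallest height was 155. The share of the PCGF1 list in domains was 12.5% above 8000 bp, 5.99% above 15000 bp, 11.7% with RING1B peaks within 1 kb merged and 10.8% for the stronger 50% of PCGF1 peaks by -log10 q; merging gave 26.1 PCGF1 peaks per Mb. With the stronger 50% of PCGF1 peaks, 19.6% of domains held one, the density was 17.7 per Mb, the central windows 3.66% and the median PCGF1 fold 5.08. Joining PCGF1 peaks less than 2 kb apart, a setting chosen after seeing the data, gave 16.8 sites per Mb. The share on H3K27me3 was 76.1% when 50% of a domain had to be covered and 94.4% with the taller 50% of regions. Fewer peaks, wider limits and stricter overlap move these values by construction. No paired analysis was possible because each list gives 1 value for both libraries; for the same reason no library could be left out. Read depth is unknown, and a peak under the authors' cutoff cannot be told from an absent one.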
